A study of Mus musculus with 8 samples.

Results

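The genes described here mark the lining of blood vessels and number 10 of 14311 genes tested and of 20145 named on the array, and 14 of the 55681 experimental probes measured them. They were taken as the pan-endothelial genes Pecam1, Cdh5, Kdr and Ptprb, the continuous-capillary genes Cd34, Plvap, Emcn and Vwf, and the tip-cell genes Esm1 and Apln, with every probe whose accession maps to one of them. All 10 genes had a tested probe and all 14 probes passed the filter on dim signals. Cd34, Kdr, Plvap and Ptprb had 2 probes each.

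The samples were 8 hepatocellular carcinomas (HCC) of male mice labelled miR-122 KO, each set against the liver of an age-matched male labelled miR-122 floxed on 1 array of 2 colours. Both sides had a mixed background of C57BL/6J and 129S/Svj. Tumor RNA carried Cy5 and control RNA Cy3 on every array, so a dye effect and a tumor effect cannot be told apart, and neither can the loss of the microRNA and the tumor. The labels used here give no age and name no Cre, and do not say whether controls or tumors shared animals, so p-values measure the spread between these 8 arrays.

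Hepatocytes are fed by sinusoids, whose endothelium is fenestrated, lacks a continuous basement membrane and normally carries little Cd34. In capillarization, known from cirrhosis and hepatocellular carcinoma, this endothelium loses its fenestrae, gains basement membrane and takes on markers of continuous capillaries. In sprouting angiogenesis, tip cells lead the new vessel and secrete proteins such as Esm1 and apelin, while vascular endothelial growth factor (VEGF) acts through the receptor Kdr.

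The endothelial genes did not move as one. Esm1, Cd34 and Emcn were higher in HCC on 8 of 8 arrays, by 26.2-fold, 8.61-fold and 2.26-fold. Apln was also higher on 8 of 8 arrays, but it was well above background in 3 of the 8 control channels and passed the filter only through the tumors, so its fold is not fixed by these arrays. Ptprb was lower on 8 of 8 arrays, by 2.44-fold. Pecam1, Cdh5, Plvap and Vwf had mean log2 ratios between 0.02 and 0.49 and did not pass the test, and Kdr was lower by less than the 2-fold that a call required. A call required an adjusted p below 0.05 together with a change of at least 2-fold, and 4 of the 10 genes met it as higher, Apln among them, and 1 as lower. Over all genes tested, 9.54% were called higher and 5.94% lower, 15.5% in either direction. Of the 14 probes, 4 were called higher and 2 lower, against 6.63% and 4.66% of all tested probes. The dimmer Cd34 probe, like Apln, passed the filter only through the tumors. The median log2 ratio was 0.37 over the 10 genes, against 0.03 over all genes tested. In RNA of whole tissue, more cells of a type and more RNA per cell cannot be told apart.

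**Figure D1:**
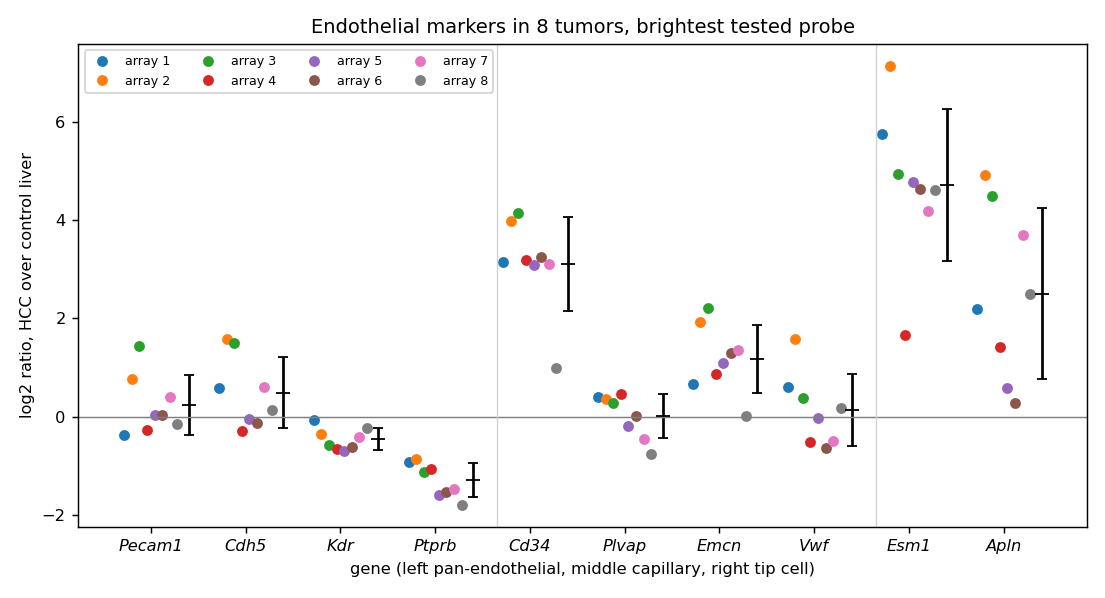
Log2 ratio of HCC over control liver (vertical axis) for each gene (horizontal axis), by the brightest tested probe. Coloured points are the 8 arrays and black bars the mean and SD. Esm1, Cd34, Apln and Emcn lie above 0 on all 8 arrays, and Kdr and Ptprb below 0 on all 8.

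All 8 arrays lay on 1 slide, in 2 rows of 4, and no spot was saturated. Probes well above background made up 38.5% to 51.9% in the tumor channel and 45.1% to 54.3% in the control channel, with tumor 8 the lowest of the tumors. The control channel of array 8 also held skeletal muscle RNA. Over 20 muscle genes, the summed signal was 10797 in HCC and 131246 in control liver on array 8. On the other arrays it was 2367 to 5361 in HCC and 2864 to 3417 in control liver. Of these 20 genes, 8 were well above background in the control on array 8 alone. The part of this muscle RNA in the ratios of array 8 was not tested. Means without array 8 are given below for Cd34, Emcn and the second Kdr probe. By the brightest probe, the mean log2 ratio without array 8 was -1.22 for Ptprb, 0.13 for Plvap, 0.54 for Cdh5 and 0.29 for Pecam1. The number of arrays limits the precision.

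The tip-cell gene Esm1 encodes endocan, a secreted proteoglycan of endothelial cells that VEGF induces. Its log2 signal had a lowest value of 10.76, a median of 12.19 and a highest of 14.80 in HCC, against 6.63, 7.31 and 9.86 in control liver. The groups did not overlap, and no tumor was as low as the highest control. On average the log2 ratio was 4.71 ± 1.54 (SD, n = 8; adjusted p = 4.23e-05). The 95% interval ran from 12.7-fold to 54.1-fold, and Esm1 had the fifth highest ratio of all genes tested. Tumor 2 had the highest ratio (7.14) and tumor 4 the lowest (1.65). Tumor 4 combined the lowest tumor signal (10.76) with a control signal of 9.10. The control signal was also high on array 3 (9.86) and array 7 (8.55), against 6.63 to 7.38 on the other 5 arrays. The spread between control channels was therefore large for this gene (SD 1.20), nearly that of the tumors (SD 1.28).

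Apln encodes apelin, the peptide that tip cells release and that acts on the receptor Aplnr. Its log2 signal ran from 6.46 through a median of 8.66 to 11.22 in HCC, against 6.08, 6.19 and 6.54 in control liver. The ranges overlapped only at tumor 6 (6.46), which lay below the highest control. Apln had a mean log2 ratio of 2.51 ± 1.73 (SD, n = 8) as normalized here. Tumors differed widely: the ratios were 4.91, 4.48 and 3.69 in tumors 2, 3 and 7, and 0.58 and 0.28 in tumors 5 and 6. Apln was well above background in all 8 tumors and in the controls of arrays 2, 3 and 8. On the other 5 arrays the control was not, and the mean log2 ratio was 5.35 with the processed signals of the scanner software. Its adjusted p of 0.00303 is that of a gene tested only through the group where it was high, and supports no size. Within the rows of the slide, the ratio was 3.25 ± 1.71 in row 1 and 1.76 ± 1.62 in row 2 (SD, n = 4 each), and row 2 alone gave no call (adjusted p = 0.0927).

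Cd34, a sialomucin of continuous capillaries that sinusoids carry at low level, showed the largest rise of the 4 capillary genes. Its brighter probe had a lowest log2 signal of 10.17, a median of 11.91 and a highest of 13.18 in HCC, against 8.16, 8.77 and 9.19 in control liver. No tumor overlapped the controls. Cd34 had a mean log2 ratio of 3.11 ± 0.95 (SD, n = 8; adjusted p = 3.13e-05), with a 95% interval of 5.47-fold to 13.6-fold. In 7 tumors the ratio lay between 3.09 and 4.14, and in tumor 8 it was 0.98. Without array 8 the ratio was 3.41 ± 0.45.

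The dimmer probe of Cd34, annotated to the same accession, gave a much smaller value. It was well above background in 7 tumors and in none of the control channels, so the control level is only a bound. Its mean log2 signal was 6.83 in HCC and 6.11 in control liver. Set against the bound, HCC was 1.61-fold higher, with tumor 8 itself not well above background. The brighter probe exceeded it on all 8 arrays, by 2.39 ± 0.68 in log2 ratio. The 2 probes of Cd34 thus shared the direction but not the size, and their mean gave a log2 ratio of 1.91. Tumor 8 had the lowest ratio on both (0.98 and 0.14).

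Emcn encodes endomucin, a sialomucin of capillary and venous endothelium. Its log2 signal ran from 7.58 through a median of 8.61 to 9.49 in HCC, against 7.19, 7.34 and 7.56 in control liver. The lowest tumor, tumor 8 (7.58), lay next to the highest control (7.56), and the groups did not overlap. The log2 ratio was 1.18 ± 0.69 (SD, n = 8; adjusted p = 0.00154), with a 95% interval of 1.62-fold to 3.17-fold. It was 2.20 in tumor 3 and 0.02 in tumor 8. The ratio was 1.35 without array 8, 1.42 ± 0.76 in row 1 and 0.94 ± 0.63 in row 2 (SD, n = 4 each), where it was not called (adjusted p = 0.0557).

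Plvap and Vwf, the other capillary genes, gave no call. Plvap forms the diaphragms of fenestrae and caveolae. Its brighter probe had a lowest log2 signal of 11.14, a median of 12.32 and a highest of 12.71 in HCC, against 11.72, 12.22 and 12.42 in control liver. Tumors 2, 3 and 4 lay above the control range, tumor 8 below it and the other 4 within it, and the log2 ratio was 0.02 ± 0.45 (SD, n = 8; adjusted p = 0.921). The 95% interval ran from 0.806-fold to 1.27-fold. By row of the slide, the 4 ratios of row 1 lay at 0.38 ± 0.07 and those of row 2 at -0.34 ± 0.33 (SD, n = 4 each), with no overlap. The second probe gave -0.28 ± 0.31 (adjusted p = 0.0570 over all tested probes).

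Vwf encodes von Willebrand factor, the clotting protein stored in endothelial granules and platelets. Its log2 signal ran from 9.73 through 10.42 to 11.87 in HCC, against 10.23, 10.28 and 10.50 in control liver. The tumors spread on both sides of the narrow control range. The log2 ratio was 0.14 ± 0.74 (SD, n = 8; adjusted p = 0.634), with a 95% interval of 0.770-fold to 1.57-fold. Tumor 2 stood highest at 1.58 and tumor 6 lowest at -0.64.

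**Figure D2:**
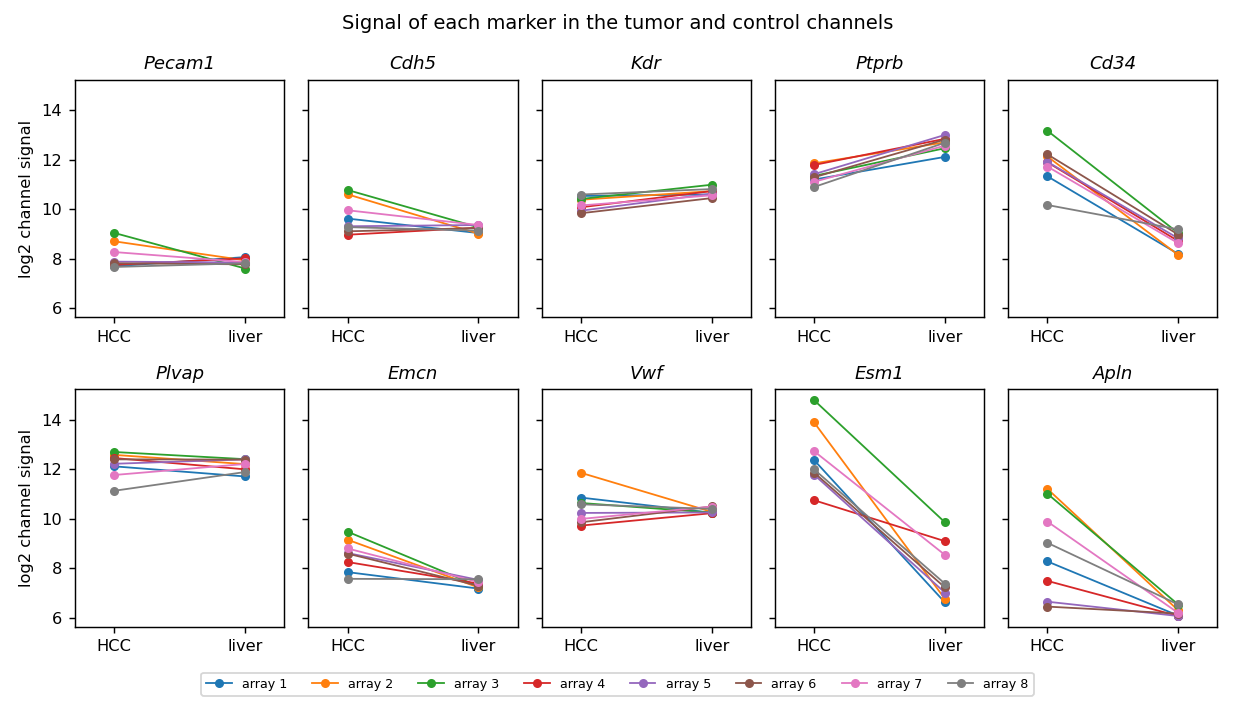
Log2 signal of each gene in the tumor channel (left of each panel) and the control channel (right), after loess and Aquantile normalization, 1 line per array. Esm1 and Cd34 fall from left to right on every array without overlap of the groups, and Ptprb rises on every array. Heights of different genes are not comparable, since probes differ.

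Pecam1 and Cdh5 are surface proteins of the junctions between endothelial cells, and Pecam1 is also carried by leucocytes and platelets. Pecam1 had a lowest log2 signal of 7.67, a median of 7.85 and a highest of 9.04 in HCC, against 7.61, 7.86 and 8.07 in control liver. The medians lay side by side, and tumors 2, 3 and 7 exceeded every control. The log2 ratio was 0.24 ± 0.61 (SD, n = 8; adjusted p = 0.323), with a 95% interval of 0.873-fold to 1.59-fold. Cdh5, the cadherin of endothelial junctions, had a log2 ratio of 0.49 ± 0.72 (SD, n = 8; adjusted p = 0.0902). Tumors 2 and 3 were the highest for both genes, at 0.77 and 1.44 for Pecam1 and at 1.59 and 1.51 for Cdh5. Ratios of Cdh5 were -0.29 to 0.60 in the other 6 tumors.

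Kdr is the main signalling receptor for VEGF. By its brighter probe it had a lowest log2 signal of 9.84, a median of 10.27 and a highest of 10.60 in HCC, against 10.45, 10.68 and 10.99 in control liver. The ranges overlapped, yet each tumor was below its own control on all 8 arrays. Kdr had a mean log2 ratio of -0.45 ± 0.22 (SD, n = 8; adjusted p = 0.00275), short of the size required for a call. The second probe, printed as 10 spots on each array, gave -0.83 ± 0.57 (adjusted p = 0.00446 over all tested probes), and -0.66 ± 0.33 without array 8. The ratios of the 10 spots of an array had SDs of 0.12 to 0.23, against an SD of 0.57 between arrays. On array 8 the probes of Kdr parted, at -0.22 for the brighter and -2.03 for the dimmer, a gap beyond the spread of the spots.

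Ptprb encodes the vascular endothelial phosphatase VE-PTP, which acts on the angiopoietin receptor Tek and on the Cdh5 junction. Its brighter probe had a lowest log2 signal of 10.902, a median of 11.32 and a highest of 11.86 in HCC, against 12.12, 12.70 and 13.01 in control liver. Every tumor was below every control. The log2 ratio was -1.29 ± 0.35 (SD, n = 8; adjusted p = 3.09e-05), or 2.44-fold lower, and the second probe gave -1.23 ± 0.19. The ratios of the brighter probe were -0.99 ± 0.12 in row 1 of the slide and -1.59 ± 0.14 in row 2 (SD, n = 4 each), with no overlap. The ratios of the second probe overlapped between the rows, with the lowest of row 1 at -1.27 and the highest of row 2 at -1.10. In row 1 alone the fold of the brighter probe fell just short of a call (adjusted p = 0.00244).

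**Figure D3:**
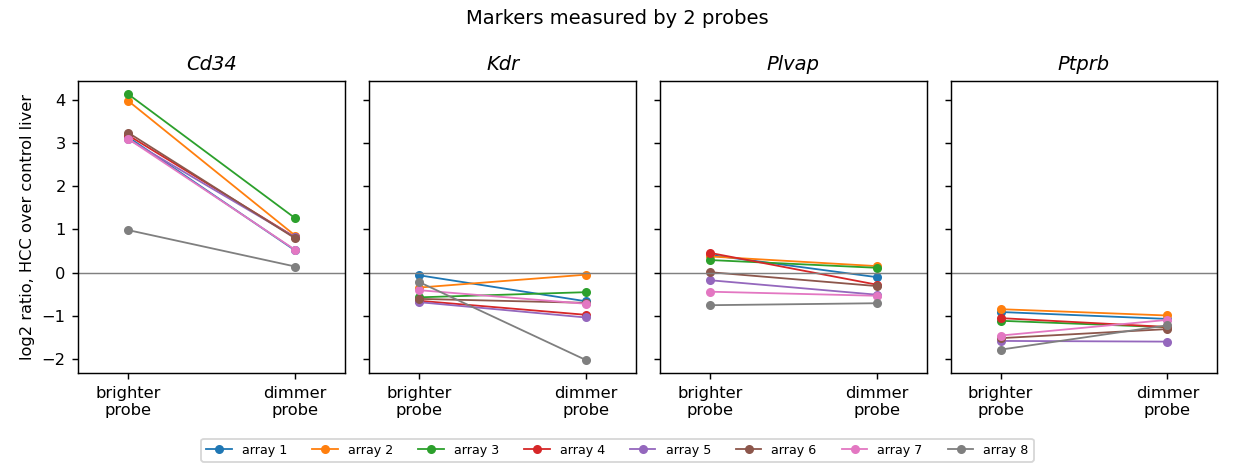
Log2 ratio of HCC over control liver (vertical axis) for the genes with 2 probes, the brighter probe on the left of each panel and the dimmer on the right, 1 line per array. The probes of Ptprb agree, those of Cd34 differ by 2.39 on average, and those of Kdr part on array 8.

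Whether the capillary and tip-cell genes changed unequally to the vessel lining in general was asked by subtracting the ratio of Pecam1 on the same array. Each difference was tested with an exact two-sided sign-flip permutation test over 8 arrays, adjusted over 9 genes. The smallest p this test can give is 0.0078, or 0.0141 after adjustment here. Esm1 exceeded Pecam1 by 4.48 ± 1.44, Cd34 by 2.87 ± 0.76 and Emcn by 0.94 ± 0.35 (SD, n = 8), each on 8 of 8 arrays and each at the smallest p that the exact test can give. Ptprb was below Pecam1 on 8 of 8 arrays, with a difference of -1.53 ± 0.62 and an exact permutation p that was also the smallest possible. The Cd34 difference is that of its brighter probe, whose log2 ratio exceeded that of the dimmer probe by 2.39 on average. With the mean of its 2 probes, Cd34 exceeded Pecam1 by 1.67. Apln lay 2.27 ± 1.35 above Pecam1, a value that rests on the dim controls of Apln and was 5.21 with the processed signals. Kdr was below Pecam1 on 7 arrays (-0.68 ± 0.70, adjusted p = 0.0352 by the exact permutation test). This call for Kdr was lost without array 2, 3, 4, 5, 6 or 7 (adjusted p = 0.0703 each by the exact permutation test) and with the processed signals. The differences of Cdh5 (0.26 ± 0.42), Plvap (-0.22 ± 0.69) and Vwf (-0.10 ± 0.77) did not pass. Of the 9 differences, that of Emcn had the smallest SD between tumors and that of Esm1 the largest.

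Across the 8 arrays, 41 of the 45 pairs of these genes had a Pearson r above 0. The share over pairs of all genes tested was not computed, so this count does not set these genes apart. After adjustment over 45 pairs, 4 passed by Pearson's r and 0 by Spearman's rho, whose lowest adjusted p was 0.100 by an exact permutation test. Cd34 and Emcn had r = 0.897 and rho = 0.738 (exact permutation p = 0.00181 and 0.0458; adjusted 0.0435 and 0.344). Without arrays 3 and 8 their r was 0.801. Cdh5 and Apln had r = 0.913 and rho = 0.905 (exact permutation p = 0.00226 and 0.00456; adjusted 0.0435 and 0.103), and r = 0.774 without arrays 2 and 3. This pair rests on the dim controls of Apln, which passed the filter only through the tumors, so its p-values give no support. Pecam1 and Emcn had r = 0.867 and rho = 0.929 (exact permutation p = 0.00352 and 0.00223; adjusted 0.0435 and 0.100), and r = 0.626 without arrays 2 and 3. Ptprb and Plvap had r = 0.903 and rho = 0.833 (exact permutation p = 0.00387 and 0.0154; adjusted 0.0435 and 0.231). Both were higher in row 1 of the slide than in row 2. Their r was 0.854 without arrays 2 and 8. Rows of 4 arrays hold too few samples for a value within rows. Pecam1 and Cdh5 (r = 0.817) fell to r = 0.225 without arrays 2 and 3 and so rested on those arrays.

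**Figure D4:**
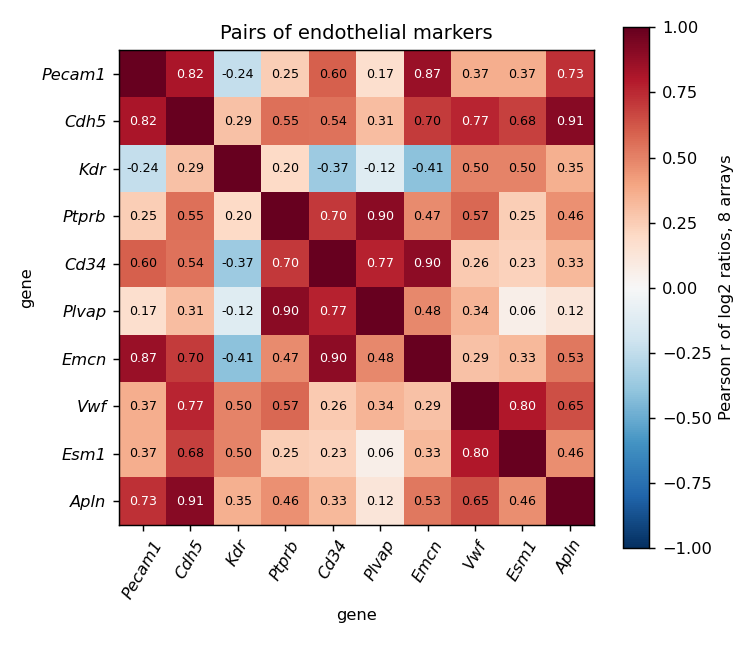
Pearson r of log2 ratios over 8 arrays for each pair of genes (both axes), from blue at -1 to red at 1. Values run from -0.41 to 0.91, and Kdr holds the negative ones.

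As a description over 8 arrays and 14303 genes, the genes most like Pecam1 in ratio were Adgrl4, an adhesion receptor of endothelial cells (r = 0.972), Aoc3 (0.969), Opn3 (0.966), Tgfb3 (0.957) and Sncaip (0.953). Those most like Cd34 were Adgra3 (0.992), Nthl1 (0.985), Mapk12 (0.979), Dip2a (0.972) and Gng11 (0.972). The Cd34 ratio was 0.98 on array 8 and at least 3.09 on the others, so these r lean on array 8, and none was taken without it. Those most like Esm1 were Llcfc1 (0.950), Cyp2a4 (0.945), Lsm4 (0.943), Arhgap11a (0.918) and Smad1 (0.915).

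RefSeq promoters (GRCm38.p6) for 5 of the 10 genes were used here. The 250 bases before the start that each promoter entry takes are shown for Esm1, Apln, Cd34 and Emcn, 5′ to 3′ on the strand of the gene, because these genes were higher on the same arrays. For Emcn that start lies inside the annotated span of the gene, so the last bases of its window do too. Capitals mark GGAAG or its reverse complement CTTCC, the core that ETS factors of endothelial cells read.
Esm1, chr13:113209409-113209658, plus strand: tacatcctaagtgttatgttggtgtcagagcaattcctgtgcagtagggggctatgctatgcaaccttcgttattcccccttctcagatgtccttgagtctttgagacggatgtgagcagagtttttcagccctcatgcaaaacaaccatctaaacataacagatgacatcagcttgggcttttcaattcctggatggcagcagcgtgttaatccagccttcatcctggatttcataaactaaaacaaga
Apln, chrX:48034854-48035103, minus strand: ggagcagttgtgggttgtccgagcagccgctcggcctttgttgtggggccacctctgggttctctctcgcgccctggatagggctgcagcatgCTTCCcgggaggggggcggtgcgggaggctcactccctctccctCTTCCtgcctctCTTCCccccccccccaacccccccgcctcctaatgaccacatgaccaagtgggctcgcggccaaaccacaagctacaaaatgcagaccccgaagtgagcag
Cd34, chr1:194938571-194938820, plus strand: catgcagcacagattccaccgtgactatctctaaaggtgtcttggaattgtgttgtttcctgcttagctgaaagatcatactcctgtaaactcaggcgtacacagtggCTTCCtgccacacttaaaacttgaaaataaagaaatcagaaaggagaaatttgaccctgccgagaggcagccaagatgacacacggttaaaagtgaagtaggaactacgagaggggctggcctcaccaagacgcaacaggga
Emcn, chr3:137340828-137341077, plus strand: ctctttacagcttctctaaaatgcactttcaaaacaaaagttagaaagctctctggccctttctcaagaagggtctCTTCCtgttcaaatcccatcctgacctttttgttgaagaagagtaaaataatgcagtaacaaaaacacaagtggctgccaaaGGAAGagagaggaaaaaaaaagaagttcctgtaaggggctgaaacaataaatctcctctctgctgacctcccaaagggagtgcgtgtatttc

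GGAAG occurred 3 times before Apln, 2 times before Emcn, 1 time before Cd34 and 0 times before Esm1. The shorter GGAA was not counted and is seen in the Esm1 window on the other strand, as ttcc. It also occurred 1 time in the window of Kdr, which was not called and whose window lies wholly inside the annotated span of the gene. It is common: 64.1% of 32851 promoters of the same length hold it on either strand. ACGTG, 1 form of the hypoxia core, occurred in 0 of the 5 windows, against 16.6% of all promoters. The other form, GCGTG, was not counted and is seen in the windows of Esm1, Emcn and Kdr. The SOX core ACAAT occurred in those of Cd34 and Emcn, against 27.7% of all promoters. These matches describe letters within this window and say nothing of binding.

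The other genes of the vessel wall showed what moved with these markers. Among 26 further pan-endothelial genes the median log2 ratio was 0.05, and 2 were called higher and 0 lower. Over all genes tested, 9.54% were called higher and 5.94% lower, so 2 of 26 does not set this list apart. The same shares stand beside every count in the lists that follow. Cd93 (1.59 ± 0.76), a receptor of activated endothelium, and Ecscr (1.24 ± 0.78), an endothelial surface protein, were the ones called. Of the other genes of the list, log2 ratios ran from -0.84 for Tek to 0.68 for Fli1, both named after their values were seen. Without array 8, 2 genes were again called.

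Of 10 tip-cell genes outside the markers, 6 were called higher and 0 lower, against 9.54% and 5.94% of all genes, with a median of 1.502, and 6 were called without array 8. The 4 not called had log2 ratios of 0.64 to 1.12. Kcne3, a potassium channel subunit, rose by 2.44 ± 1.16, Pdgfb, which recruits pericytes, by 1.94 ± 0.71, Rgcc by 1.91 ± 0.61 and Plaur, the urokinase receptor, by 1.85 ± 0.36 (SD, n = 8; adjusted p between 4.97e-06 and 3.99e-04). The brighter probe of Pdgfb set this size, and its lowest probe gave 0.63. Which cells of the tissue made the RNA of this list was not tested. Of the angiopoietin ligands, Angpt2, which tip cells release and which antagonizes Angpt1 at Tek, rose by 2.14 ± 1.39 (adjusted p = 0.00220). It was the 1 called of 3 tested, and 2 were called without array 8. The Notch genes had a median of 0.72 over 8 tested, of which 3 rose and 1 fell. The netrin receptor Unc5b rose by 2.11 ± 0.23, the receptor Notch4 by 1.32 ± 0.89 and the target gene Hey1 by 1.21 ± 0.35, while the receptor Notch1 fell by 1.76 ± 0.63.

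VEGF and apelin ligands and receptors gave 0 genes called higher and 1 lower of 9, with a median of 0.20. The co-receptor Nrp2 was the one that fell (-1.05 ± 0.64, adjusted p = 0.00185), and this call was lost without array 8. Its other probe gave -0.37. Vegfa, the main ligand of Kdr, had a log2 ratio of 0.23 ± 0.30 (adjusted p = 0.0951). Aplnr, the receptor of apelin, had a ratio of 0.65 ± 0.45, under the size for a call. It was well above background in 7 tumors and in 1 control channel, and so passed the filter only through the tumors. Its adjusted p of 0.00461 by limma, like that of Apln, therefore supports no size. Vegfa and Aplnr are named as partners of the markers, after their values were seen. The hypoxia response had a median of 0.27 over 12 genes, of which 4 rose and 1 fell. Ndrg1 (2.15 ± 0.85), the glucose transporter Slc2a1 (1.92 ± 0.89) and Ankrd37 (1.23 ± 1.19) rose, and the kinase Pdk1 fell (-1.298 ± 0.43).

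Of 12 genes of the vascular basement membrane, 7 were called higher and 0 lower, with a median of 1.31, and 8 were called without array 8. The 5 not called ran from -0.17 for Col18a1 to 0.90 for Lamb1, both named after their values were seen. Lama5 (2.90 ± 1.00) and the type IV collagens Col4a1 (2.52 ± 0.65) and Col4a2 (1.96 ± 0.49) rose most, with the linker Nid1 (2.28 ± 0.62), the lowest of whose 3 probes gave 0.41. Of 11 pericyte and smooth muscle genes, 4 were called higher and 0 lower, against 9.54% and 5.94% of all genes, with a median of 0.64. Those higher were the receptor Pdgfrb (1.45 ± 0.58), the smooth muscle actin Acta2 (1.14 ± 0.84), Notch3 (1.11 ± 0.79) and Kcnj8 (1.02 ± 0.81). The 7 not called ran from -0.31 for Rgs5 to 0.78 for Tagln, named after their values were seen, and Des, Abcc9 and Myh11 also had means below 0. Without array 8, 3 of the 11 were called. Other cells make these proteins too.

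Most markers of sinusoidal endothelium, unlike Cd34 and Emcn, were called lower. Of 16 genes, 0 were called higher and 10 lower, with a median of -1.20 and array means of -1.71 to -0.91. Without array 8, 9 were called. The 6 not called included 2 with ratios above 0, Flt4 (0.78 ± 0.35, on 8 of 8 arrays, adjusted p = 5.88e-04) and Lyve1 (0.43 ± 1.23, adjusted p = 0.355), named after their values were seen. The lectin Clec4g (-3.13 ± 1.06), Oit3 (-2.80 ± 0.67), the angiocrine factor Bmp2 (-2.51 ± 0.38) and the nuclease Dnase1l3 (-2.23 ± 0.59) fell most (SD, n = 8; adjusted p between 1.28e-06 and 5.49e-05). Ptprb (-1.29) had a mean near the median of this list and Kdr (-0.45) one above it.

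**Figure D5:**
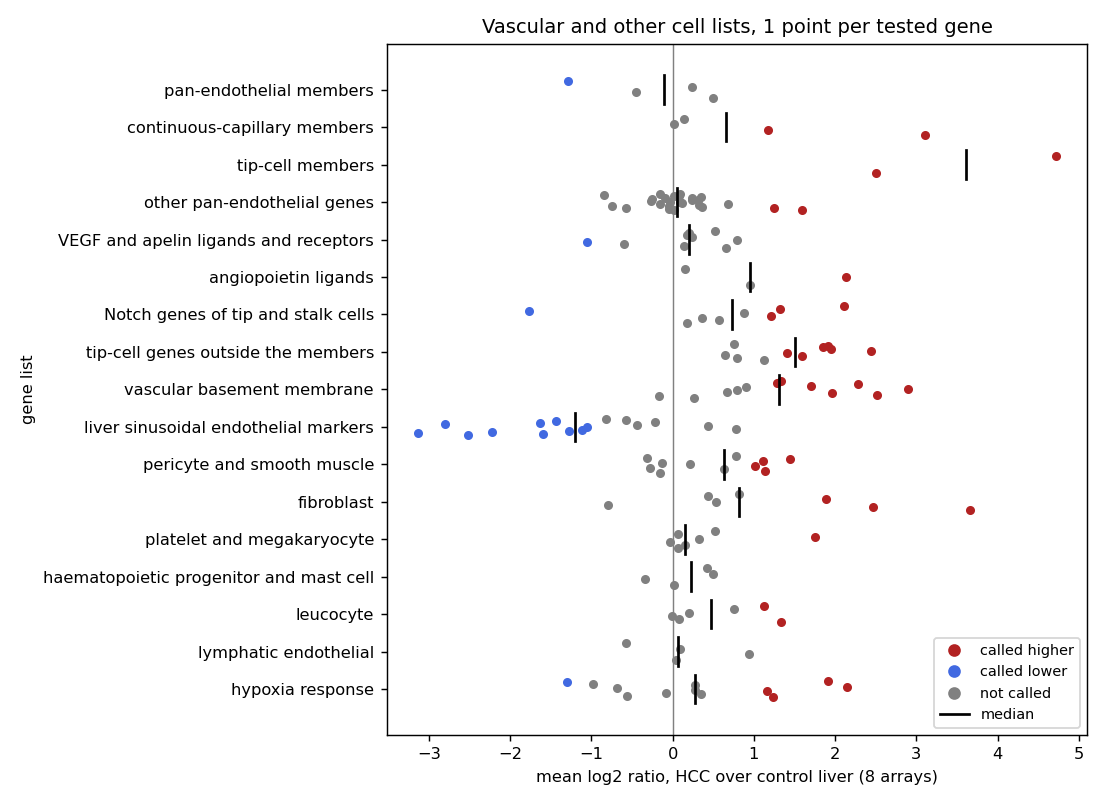
Mean log2 ratio of HCC over control liver (horizontal axis) for each tested gene, by gene list (vertical axis). Red points were called higher, blue lower and grey not called, and black ticks are medians. Tip-cell and most basement membrane genes lie to the right of 0, most sinusoidal genes to the left, and other pan-endothelial genes around 0.

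Some markers are shared with other cells, whose genes were read beside them. Of 6 tested leucocyte genes, which can carry Pecam1, 2 rose (Coro1a at 1.34 ± 0.54 and Ptprc at 1.12 ± 0.64) and 0 fell. Their summed signal ran from 8778 to 33766 in HCC and from 13114 to 21068 in control liver. Of 7 tested platelet genes, which can carry Vwf and Pecam1, Pf4 alone rose (1.75 ± 0.59). Their summed signal over 10 genes was 1701 to 3907 in HCC and 1151 to 1562 in control liver, and 3 of the 10 were not well above background in any tumor. Of 7 fibroblast genes, some of whose cells carry Cd34, 3 were called higher and 0 lower. Those higher were Col1a1 (3.654 ± 1.20), Col3a1 (2.47 ± 1.43) and Lum (1.88 ± 1.14). Of the 4 not called, Dcn was above 0 on 0 of 8 arrays (-0.80 ± 0.79, adjusted p = 0.0205 by limma), named after its value was seen. Dcn had the highest mean log2 signal of the list in both channels, 14.34 in HCC and 15.14 in control liver. The summed fibroblast signal was 9956 to 52380 in HCC and 33680 to 44518 in control liver. Its lowest tumor value (9956) was that of tumor 8, where the Cd34 ratio was also lowest. Tumor 8 also had the lowest summed signal of the other pan-endothelial, basement membrane, sinusoidal, pericyte, leucocyte and lymphatic genes. It had the highest of the tumors for the platelet, progenitor and mast cell, muscle and hypoxia genes. Progenitor and mast cell genes gave 0 calls of 4 tested by limma (0 at an unadjusted p below 0.05). Their summed signal was 686 to 1487 in HCC and 762 to 948 in control liver. Of 4 lymphatic genes 0 were called by limma (2 at an unadjusted p below 0.05), and the summed signal was 687 to 1334 in HCC and 838 to 1140 in control liver. Of 6 hepatocyte genes, each well above background in all tumors and controls, 0 were called higher and 2 lower, Serpina1a (-1.79 ± 0.47) and Apoa1 (-1.05 ± 0.88). Of 9 tested muscle genes, Neb alone was called (-1.38 ± 0.85). The part of these cells in the values of Pecam1, Vwf and Cd34 was not tested.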

How the data were processed

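Each of 8 arrays of 2 colours compared RNA of 1 tumor (Cy5) with control liver (Cy3). The deposited median signals and backgrounds are intensities that were neither corrected nor normalized. The deposited processed signals, also intensities, were background-subtracted, detrended and dye-normalized, per the file headers. The deposited log10 values are ratios of the red to the green signal. Signals were extracted with Agilent Feature Extraction 10.9, per the submitters' processing notes (10.9.1.1 per the file headers). The deposited flags for signals well above background and for saturation (0 or 1, other values) were used as given. The design build is mm9.

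Median signals were corrected with normexp (offset 50) and loess within arrays (R 4.3.3, limma 3.58.1), outlier and control spots at weight 0 and then left out. Spots of a probe were averaged. Probes were named by accession through RefSeq GRCm38.p6 (26582 of 55681). A probe was tested if well above background, in at least 0.5 of its spots, on at least 4 arrays in 1 channel, and each gene was represented by its brightest tested probe. Mean log2 ratios were tested against 0 with limma (lmFit, eBayes), adjusted by Benjamini-Hochberg over 14311 genes, or over 29290 probes where said. Channel signals are log2 values after loess and Aquantile. A probe below background throughout 1 channel was given a bound from the lowest signal well above background on each array.

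The genes and lists were chosen with earlier results of these data known. Named genes are all markers with every probe, up to 4 called genes of largest ratio per list, and the 5 most alike to Pecam1, Cd34 and Esm1. The procedure was tested on simulated data.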

Additional observations from a re-analysis of the deposited data

Results flagged for a closer look

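The log2 ratio of the brighter Cd34 probe in tumor 8 (0.98) stood apart from the other 7 tumors, the nearest of which was 3.09. The gap was 0.669 of the whole range, above Dixon's 95% critical value for 8 samples. Chance marks about 1 in 20 groups in this way, and 14 probes were examined. On array 8 the log2 signal of Cd34 was 10.17 in HCC, the lowest tumor value, and 9.19 in control liver, the highest control value. The control of array 8 is the one that held skeletal muscle RNA, and tumor 8 was the dimmest tumor. Their part in this value was not tested.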

How the results depend on the processing

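No paired analysis was possible because each array already pairs 1 tumor with its control and the labels give 1 group. The calls of Ptprb, Cd34, Emcn, Esm1 and Apln, and no others of the 10 genes, were kept under every other setting tried except each row of the slide alone, and without each array in turn (5 to 5 called). Row 1 of the slide alone called 4 (Ptprb at -0.99 lost) and row 2 alone 3 (Emcn at 0.94 and Apln at 1.76 lost). These rows have 4 arrays each. Over all genes, 2215 were called, 2135 to 2395 without each array in turn, 1557 in row 2 alone and 3539 with the processed signals. With the processed signals, 56.7% of calls were higher, and in row 2 alone 54.5%. The uncalled ratio of Plvap changed sign with the mean of its probes (-0.13), arrays 1 and 2 averaged (-0.034), row 2 alone (-0.34) and without array 1, 2, 3 or 4 (-0.036, -0.031, -0.019 and -0.043; -0.043 to 0.13 over all 8). That of Vwf did so in row 2 (-0.24) and without array 2 (-0.068; up to 0.25 over all 8). The differences from Pecam1 gave 6 calls, among them Apln, whose value rests on dim controls. They gave 5 calls with the processed signals, where Vwf turned to 0.046. Without each array they gave 5 to 6 calls, and Vwf turned to 0.036 without array 3 and 0.016 without array 7 (-0.25 to 0.036 over all 8). Using Cdh5 in place of Pecam1 gave the same 6 genes. Leaving out array 8, a choice made after seeing the data, changed the calls of VEGF and apelin genes to 0 of 9, of angiopoietin ligands to 2 of 3, of lymphatic genes to 1 of 4 and of muscle genes to 2 of 9. It gave 5 calls in place of 4 for Notch genes, 4 in place of 3 for fibroblast genes, 3 in place of 2 for leucocyte genes and 6 in place of 5 for hypoxia genes, the added one lower. The cause was not tested for any of these. Depth is signal over background here, and it limits Apln, Aplnr and the dimmer Cd34 probe.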
